A study of Homo sapiens with 12 samples.

Results

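The proteasome is the protease of the cytosol and nucleus that degrades ubiquitin-tagged proteins. Its 20S core is a stack of alpha rings and beta rings, and the beta subunits PSMB5, PSMB6 and PSMB7 carry the cutting sites. A 19S cap, made of a base with a ring of ATPases and of a lid, recognises, unfolds and feeds in the substrate. Interferon gamma is known to induce an alternative set of cutting subunits, PSMB8, PSMB9 and PSMB10, which replace PSMB5, PSMB6 and PSMB7 in newly made cores to form the immunoproteasome, and the PSME1 and PSME2 subunits of the PA28 activator. These subunits shape the peptides that HLA class I molecules present.

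The genes were chosen by name, as every row called PSMA, PSMB, PSMC, PSMD, PSME, PSMF or PSMG followed by a number. The rule found 49 rows with 48 symbols among the 60448 rows of the count table, since PSMA2 stood under 2 gene identifiers. The 5 inducible genes were PSMB8, PSMB9, PSMB10, PSME1 and PSME2, and the other 44 rows were taken as constitutive. Of the 49 rows, 46 passed the filter on low counts in every comparison, 5 inducible and 41 constitutive. The other 3 were PSMA8, an alpha subunit of the testis with 0 to 3 counts per library, PSMB11, a cutting subunit of the thymus with 0 counts in all 12 libraries, and the second PSMA2 row.

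The libraries came from 786-O, an established human clear cell renal cell carcinoma line, after transient transfection with a control siRNA (siNC) or with siRNA against GABPA, GPD1L or BRD9. GABPA is an ETS-family transcription factor, GPD1L a glycerol-3-phosphate dehydrogenase-like enzyme and BRD9 a bromodomain subunit of a SWI/SNF complex. Each of the 4 groups had 3 libraries of total RNA, with 19499090 to 29999290 counts per library. The labels give DMEM with fetal bovine serum as the medium while the study's methods name RPMI-1640, and neither the time after transfection nor which GABPA siRNA was sequenced is given in the sources used here. The study describes the GABPA experiment as independent repeats, and for siGPD1L and siBRD9 nothing states that the libraries came from separate cultures, so that p-values there measure the spread between libraries, which may be technical.

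The targeted genes were low in the libraries that bear their names. GABPA was at 44.5, 51.2 and 42.9 CPM in siNC (counts scaled to a common library size with TMM factors) and at 16.9, 14.3 and 15.3 CPM in siGABPA. It was also lower in the other targeting groups, with a mean of 25.6 CPM in siGPD1L and 27.3 CPM in siBRD9, 55.6% and 59.5% of the siNC level. GPD1L stood at 34.0% of siNC in siGPD1L and BRD9 at 25.2% of siNC in siBRD9. The line's markers PAX8, PAX2, VIM, KRT8 and KRT18 were present, while CA9, a hypoxia-driven marker of this carcinoma, was at 0 in siNC and at or below 0.08 CPM on average elsewhere. NDUFA4L2, another marker of the list, had a mean of 0.37 CPM in siNC and of 3.37, 2.83 and 1.66 CPM in siGABPA, siGPD1L and siBRD9. EPAS1 had a mean of 35.2 CPM in siNC and of 74.4, 86.25 and 109.7 CPM in these groups. VIM had a mean of 999.7 CPM in siNC and of 478.1, 936.8 and 844.2 CPM in siGABPA, siGPD1L and siBRD9. The 8 blood cell markers summed to at most 0.50 CPM in any library, led by CD14, with CD3E, MS4A1 and HBB at 0 in every group. The 3 endothelium markers summed to at most 0.39 CPM, while the 3 fibroblast markers summed to 14.4 to 34.4 CPM, most of it LUM, with DCN at 0 in siGPD1L and siBRD9. The fibroblast sum was 31.51 to 33.38 CPM in siNC and 30.65 to 34.41 CPM in siGABPA. It was 14.43 to 16.45 CPM in siGPD1L and 24.9 to 27.82 CPM in siBRD9. COL1A1 had a mean of 2.19 CPM in siNC and of 6.57, 2.27 and 3.13 CPM in siGABPA, siGPD1L and siBRD9. FOXN1, a thymus marker, stayed at or below 0.07 CPM, beside the absence of PSMB11.

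Against siNC, most constitutive proteasome genes were lower in every targeting group, while PSMB9 was higher. With edgeR's quasi-likelihood test, a false discovery rate (FDR) below 0.05 and a fold change above 1.5, 24 of the 46 tested genes were called lower in siGABPA, where 15.2% of all tested genes were called lower. The count was again 24 of 46 in siGPD1L, beside 15.5% of all genes, and 24 of 46 in siBRD9, beside 11.5%. PSMB9 was the 1 gene called higher in each comparison, against 21.3% of all genes in siGABPA, 20.4% in siGPD1L and 16.7% in siBRD9. The 3 comparisons share the 3 siNC libraries, so a property of those libraries and an effect common to the targeting siRNAs cannot be told apart.

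The median log2 fold change of the 41 constitutive genes was -0.70 in siGABPA, -0.67 in siGPD1L and -0.66 in siBRD9, while the median over all tested genes lay at 0.02, 0.01 and 0.01. At an FDR below 0.05 with no limit on the fold, 39 of 46 proteasome genes were lower and 2 higher in siGABPA, where 35.6% and 37.1% of all genes were lower and higher. In siGPD1L 38 were lower and 3 higher, beside 35.4% and 36.2%. In siBRD9 36 were lower and 3 higher, beside 33.5% and 33.8%. PSMC3 and PSMC4, ATPases of the base, had log2 fold changes of -0.90, -1.05 and -1.03 and of -0.88, -0.86 and -0.95 in siGABPA, siGPD1L and siBRD9. PSMB4 and PSMA3, of the beta and alpha rings, had -0.76, -0.82 and -0.75 and -0.76, -0.67 and -0.78, all 4 genes called in each comparison. No constitutive gene was called higher in any targeting group. The count depends on scaling: with total counts in place of TMM factors the median of all genes moved up by 0.22, 0.17 and 0.13, and 9, 15 and 18 of the 46 genes were called lower, where 8.59%, 9.87% and 7.84% of all genes were called lower under that scaling.

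**Figure D1:**
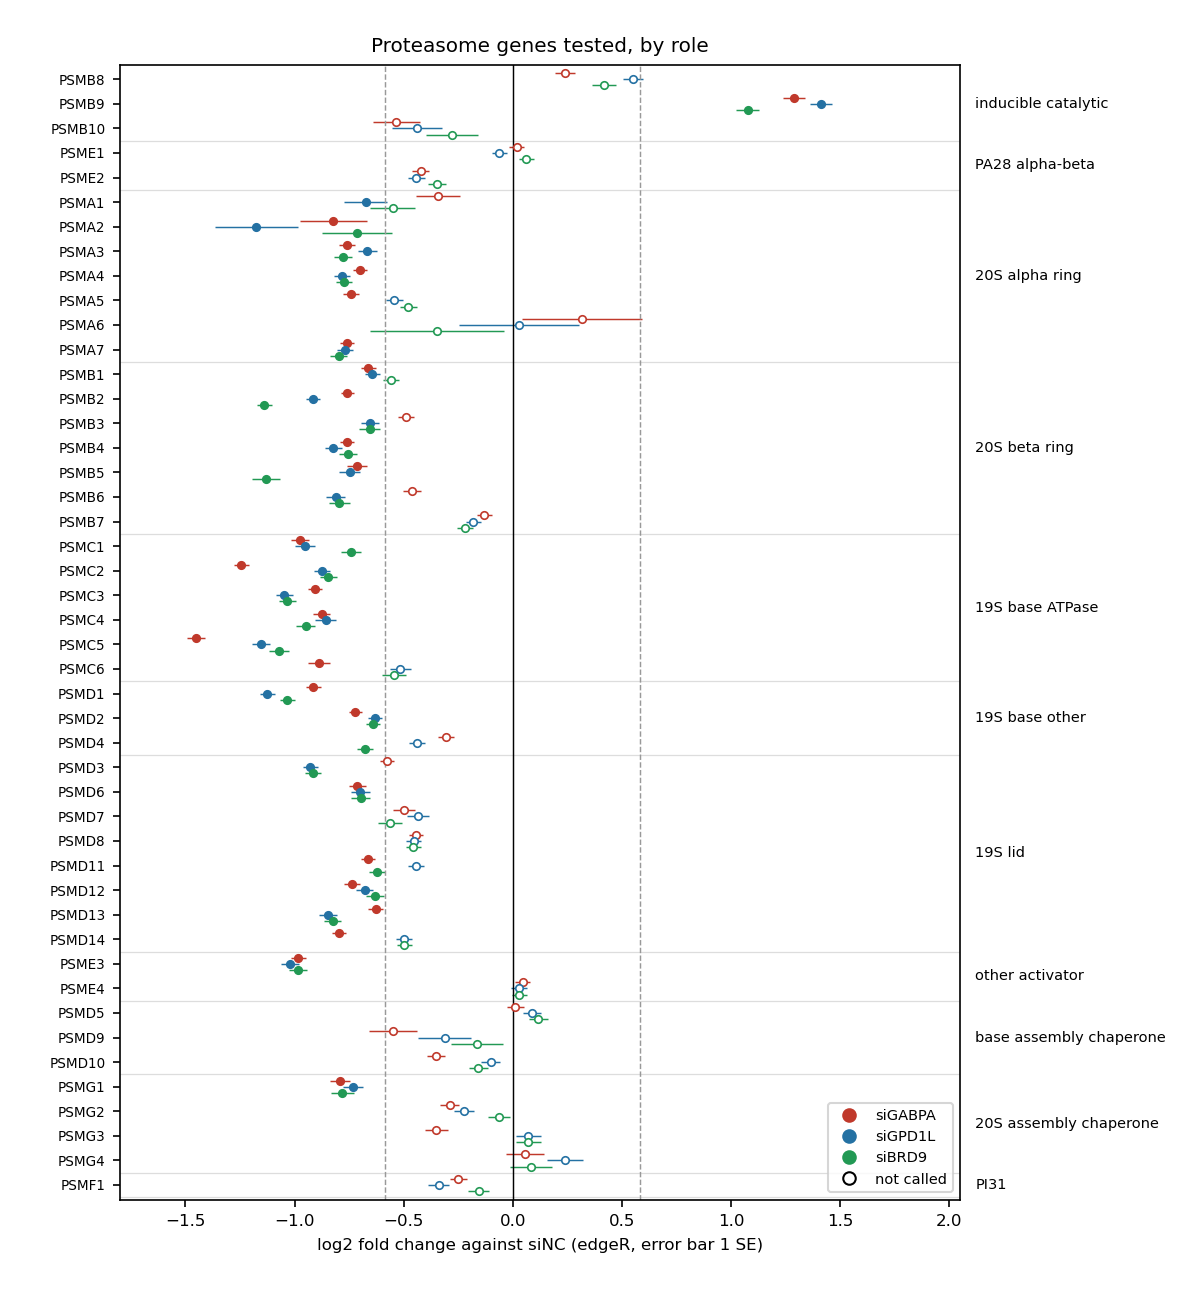
Log2 fold change against siNC (x axis, error bar 1 SE) of the 46 tested proteasome genes by role, for siGABPA (red), siGPD1L (blue) and siBRD9 (green); filled points passed an FDR below 0.05 and a fold above 1.5 (dashed lines), open points did not. Most constitutive genes lie near the median of -0.70 to -0.66, PSMB9 alone lies right of the upper dashed line, and PSME4, PSMD5 and PSMG4 lie near 0.

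The plot of fold changes by role shows genes called lower in both the core and the cap. The counts that follow stand beside 15.2%, 15.5% and 11.5% of all tested genes called lower in siGABPA, siGPD1L and siBRD9, and with 3 to 8 genes a role they are descriptions. Among the 7 tested alpha-ring genes, which form the gate of the core, 5, 5 and 4 were called lower in siGABPA, siGPD1L and siBRD9. Among the 7 constitutive beta-ring genes the counts were 4, 6 and 5. The 6 ATPases of the base, PSMC1 to PSMC6, had the lowest medians of the multi-gene roles, with log2 fold changes of -0.94, -0.91 and -0.90, and 6, 5 and 5 were called. Of the 3 non-ATPase base genes PSMD1, PSMD2 and PSMD4, the first a scaffold and the last a ubiquitin receptor, 2, 2 and 3 were called. Of the 8 lid genes, among them the deubiquitinase PSMD14, 5, 4 and 5 were called, and all 8 were lower at an FDR below 0.05 in each comparison.

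PSMC5, an ATPase of the base, was among the 3 constitutive genes with the largest called fall in every targeting group. It was at 144.3, 146.0 and 138.7 CPM in siNC and at 53.0, 49.9 and 53.8 CPM in siGABPA. In siGPD1L it was at 60.4, 67.0 and 64.4 CPM, and in siBRD9 at 64.1, 66.6 and 72.1 CPM. All 9 targeting libraries were thus below every siNC library, and siGABPA lay lowest. The log2 fold changes were -1.45 ± 0.04 (SE, n = 3 per group, edgeR FDR 1.35e-15), -1.15 ± 0.04 (FDR 7.99e-16) and -1.07 ± 0.04 (FDR 7.23e-14). In the GENCODE 29 annotation 19.5% of its exonic bases lie opposite FTSJ3, and the strand setting of the counting is not given in the sources used here. PSMC2, another ATPase, was second in siGABPA, with 327.8, 308.9 and 305.0 CPM in siNC and 135.5, 130.6 and 131.7 CPM in siGABPA. It did not overlap with siNC and its level was 42.2% of it (log2 fold change -1.24 ± 0.03, edgeR FDR 1.32e-15).

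PSME3, which forms the nuclear PA28-gamma activator of the core, was at 197.9, 191.7 and 195.6 CPM in siNC. It was at 96.4, 98.4 and 101.5 CPM in siGABPA, at 99.8, 98.3 and 89.4 CPM in siGPD1L and at 98.2, 92.6 and 102.3 CPM in siBRD9. The targeting groups overlapped each other and none overlapped siNC. Its level was 50.6%, 49.3% and 50.5% of siNC (edgeR FDR 1.98e-14, 4.01e-15 and 4.97e-14). PSME4, the PA200 activator, did not pass the test in any of these comparisons, with means of 160.8 CPM in siNC and 166.1, 163.4 and 163.0 CPM in the targeting groups.

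In siGPD1L the largest called falls beside PSMC5 were those of PSMA2 and PSMD1. PSMA2, an alpha-ring gene, was at 5.86, 6.73 and 5.07 CPM in siNC and at 2.54, 1.76 and 3.48 CPM in siGPD1L, with a log2 fold change of -1.18 ± 0.19 (edgeR FDR 1.16e-05). It is counted as uncertain here, since 14.6% of its exonic bases are shared with another gene on the same strand in GENCODE 29 and its level is far below that of its ring partners. PSMD1 was at 331.2, 326.1 and 330.9 CPM in siNC and at 151.7, 150.6 and 149.2 CPM in siGPD1L, 45.9% of the siNC mean (FDR 1.41e-17), with 10.8% of its exonic bases opposite HTR2B. In siBRD9 the largest called falls were those of PSMB2 and PSMB5. PSMB2, a non-catalytic beta subunit, was at 432.5, 433.5 and 439.2 CPM in siNC and at 191.0, 194.7 and 202.8 CPM in siBRD9, 45.4% of the siNC mean (FDR 4.14e-16). For both genes the libraries of the 2 groups were far apart relative to their spread.

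Not every gene of the machine was lower. Of the 3 base assembly chaperones, which help the ATPase ring to form, none was called in any comparison. With no limit on the fold, 2, 2 and 1 of them were lower at an FDR below 0.05 in siGABPA, siGPD1L and siBRD9. The shares of all genes lower at that FDR were 35.6%, 35.4% and 33.5%. In siGABPA the log2 fold changes of PSMD9 and PSMD10 were -0.55 and -0.35 (edgeR FDR 2.73e-04 and 5.62e-07). PSMD5 had log2 fold changes of 0.01, 0.09 and 0.12, of which the siBRD9 value passed at an FDR of 0.02. Of the 4 core assembly chaperones PSMG1 was the 1 called, at 57.7%, 60.2% and 58.2% of siNC (edgeR FDR 2.83e-11, 3.29e-12 and 8.87e-11). PSMG4 had log2 fold changes of 0.06, 0.24 and 0.08 with an FDR of 0.58, 0.01 and 0.46. PSMF1, the PI31 adaptor, was lower at 84.2%, 79.0% and 89.7% of siNC, within the limit of 1.5-fold.

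PSMA1, PSMA2, PSMA6, PSMB10 and PSMD9 share between 14.1% and 34.8% of their exonic bases with another annotated gene on the same strand, and all 5 had means of at most 11.3 CPM in siNC. PSMA6 was at 1.70, 0.80 and 1.30 CPM in siNC, although it is a part of every core whose partner PSMA7 stood at 472.7 CPM. Whether reads of these 5 genes were dropped or split in the counting was not tested, so their levels cannot be compared with those of their partners. PSMC1 is uncertain in another way, since 75.8% of its exonic bases lie opposite NRDE2 and 13 named pseudogenes exist.

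Levels of different genes can be set side by side per kilobase of exon. In siNC the order began with PSMA7 at 270.1 ± 11.8 CPM per kilobase (SD, n = 3), PSMB7 at 193.9 ± 8.63 and PSMB4 at 164.0 ± 6.77, whose ranges of mean and SD do not touch. PSMB6 stood at 87.6 ± 4.21 and PSMB5 at 38.4 ± 1.70. The inducible genes spread over the order, with PSME1 at 87.7 ± 0.36, within the spread of PSMB6, PSME2 at 29.3 ± 0.80, PSMB8 at 23.3 ± 1.48, PSMB9 at 9.51 ± 0.49 and PSMB10, whose place in the order is uncertain for its shared bases, at 4.54 ± 0.12. All 5 inducible genes thus had counts in the siNC libraries.

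PSMB9 (chr6:32844136-32859585, plus strand, GRCh38, the span of the gene in GENCODE 29) had 31.0, 28.5 and 28.2 CPM in siNC. It had 72.6, 68.8 and 72.7 CPM in siGABPA, 76.1, 79.5 and 76.6 CPM in siGPD1L and 59.4, 61.9 and 62.2 CPM in siBRD9. Every targeting library stood above every siNC library, and siBRD9 was the lowest of the targeting groups with no overlap. The log2 fold changes were 1.29 ± 0.05 (edgeR FDR 1.00e-13), 1.41 ± 0.05 (FDR 2.83e-16) and 1.08 ± 0.05 (FDR 8.06e-13), or 244.4%, 266.2% and 211.0% of siNC. Of its exonic bases 5.66% are shared with PSMB8-AS1 on the same strand, which had a mean of 0.86 CPM in siNC and 2.45, 2.61 and 1.91 CPM in the targeting groups.

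PSMB8 (chr6:32840717-32844703, minus strand), its neighbour in the class II region of the HLA locus, had 75.1, 67.0 and 67.8 CPM in siNC. It had 86.5, 80.6 and 80.6 CPM in siGABPA, 101.6, 104.6 and 99.8 CPM in siGPD1L and 87.0, 90.6 and 100.9 CPM in siBRD9. No targeting library overlapped siNC, but the log2 fold changes of 0.24 ± 0.05, 0.55 ± 0.04 and 0.42 ± 0.05 stayed below the limit of 1.5-fold (edgeR FDR 1.93e-04, 4.50e-10 and 1.30e-06). Without siNC replicate 1, which had the highest siNC value, the siGPD1L value was 0.60 and was called. Of its exonic bases 20.6% lie opposite PSMB8-AS1 and PSMB9, so with unstranded counting some of its reads could not be assigned.

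PSMB10 did not follow the other cutting subunits. It had 8.17, 8.43 and 8.62 CPM in siNC, 6.23, 5.92 and 5.29 CPM in siGABPA, 6.98, 6.29 and 5.27 CPM in siGPD1L and 5.90, 8.24 and 6.78 CPM in siBRD9. The siBRD9 libraries overlapped siNC and the others did not. The log2 fold changes were -0.53 ± 0.11, -0.44 ± 0.12 and -0.28 ± 0.12, with an edgeR FDR of 2.54e-04, 0.002 and 0.049.

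The PA28 pair was split too, without a gene called higher. PSME2 had 108.1, 104.9 and 102.3 CPM in siNC and between 75.8 and 83.5 CPM in all 9 targeting libraries, with no overlap. It fell to 74.7%, 73.6% and 78.6% of siNC (edgeR FDR 1.87e-08, 1.43e-09 and 3.17e-07). PSME1, its partner in the ring, had 156.1, 155.6 and 156.9 CPM in siNC and between 146.8 and 164.9 CPM in the targeting libraries. Its log2 fold changes of 0.02 ± 0.03, -0.06 ± 0.03 and 0.06 ± 0.03 did not pass the test, although the 3 siGPD1L libraries lay below and the 3 siBRD9 libraries above those of siNC. With total counts the siGPD1L value turned to 0.11.

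**Figure D2:**
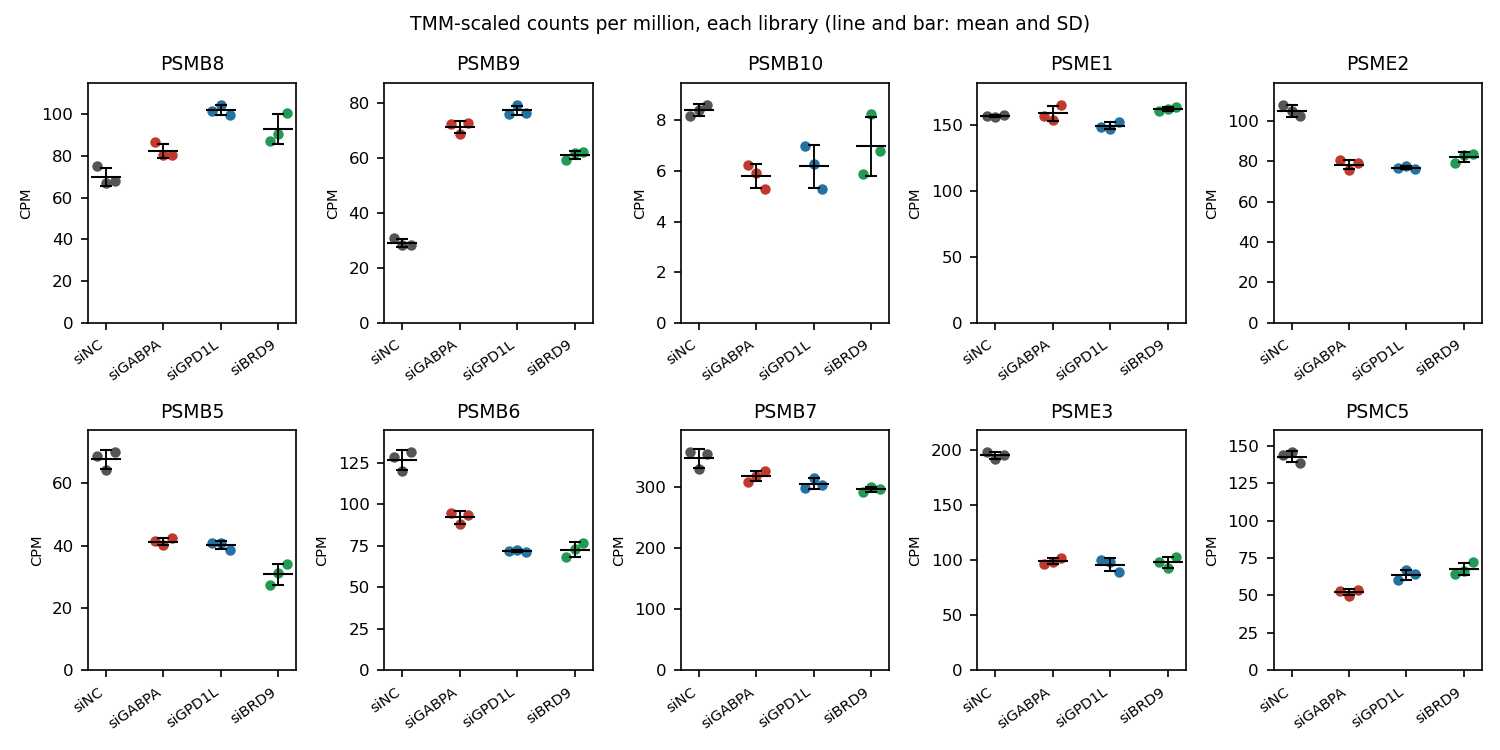
TMM-scaled counts (CPM, y axis, from 0) of the 5 inducible genes (top) and of PSMB5, PSMB6, PSMB7, PSME3 and PSMC5 (bottom) in each of the 12 libraries; points are libraries, the line and bar the mean and SD of 3. PSMB9 rises from 28.2 to 31.0 CPM in siNC to 59.4 CPM or more in every targeting library, while PSMB5, PSMB6, PSME3 and PSMC5 move down.

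The constitutive partners of the cutting subunits moved down to unequal degrees. PSMB5, replaced by PSMB8 in the immunoproteasome, had 68.7, 64.3 and 70.0 CPM in siNC, 41.4, 40.2 and 42.3 CPM in siGABPA, 40.8, 41.0 and 38.7 CPM in siGPD1L and 27.3, 31.1 and 34.0 CPM in siBRD9. It was at 60.9%, 59.5% and 45.6% of siNC (edgeR FDR 1.34e-10, 9.34e-12 and 7.66e-12), lowest in siBRD9, and with total counts in place of TMM factors its log2 fold changes of -0.50 in siGABPA and -0.58 in siGPD1L were no longer called. PSMB6, replaced by PSMB9, had 128.9, 119.9 and 131.6 CPM in siNC, 95.1, 87.9 and 93.4 CPM in siGABPA, 71.9, 72.4 and 71.5 CPM in siGPD1L and 68.0, 73.3 and 76.8 CPM in siBRD9. It was at 72.6%, 57.0% and 57.7% of siNC, highest of the targeting groups in siGABPA, where it stayed within the fold limit. PSMB7, replaced by PSMB10, was at 91.4%, 88.3% and 85.9% of siNC (edgeR FDR 0.002, 1.68e-04 and 2.27e-05), from a mean of 346.5 CPM, and with total counts its siGABPA value turned to 0.088.

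Each inducible cutting subunit was set over the subunit it replaces, and PSME1 and PSME2 over PSME3. Such a ratio within a library does not depend on the scaling between libraries. It is given per kilobase and was compared by an exact two-sided permutation test, for which 0.1 is the smallest p that 3 against 3 libraries allow. PSMB8 over PSMB5 was 0.64, 0.61 and 0.57 in siNC. With the GABPA siRNA it was 1.23, 1.18 and 1.12. The siGPD1L libraries had 1.47, 1.503 and 1.52, and the siBRD9 libraries 1.88, 1.72 and 1.75. The 4 groups did not overlap, and PSMB8 passed from below to above PSMB5 per kilobase. That crossing depends on the exonic lengths used. Without the length PSMB8 already had a mean of 70.0 CPM in siNC, against 67.7 CPM for PSMB5. The ratio was 1.94, 2.46 and 2.92 times that of siNC (exact permutation p = 0.1 each, or 0.15 after Benjamini-Hochberg adjustment over the 30 ratio comparisons made). PSMB9 over PSMB6 had a mean of 0.11 ± 0.007 in siNC (SD, n = 3), 0.37 ± 0.005 in siGABPA, 0.51 ± 0.009 in siGPD1L and 0.40 ± 0.02 in siBRD9, or 3.36, 4.67 and 3.65 times siNC (exact permutation p = 0.1 each). Per kilobase, PSMB6 thus stayed the more abundant of that pair in every group. In CPM without the length, PSMB9 had the higher mean in siGPD1L, at 77.4 against 71.9 CPM.

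For PSMB10 over PSMB7 the size of the ratio is uncertain, since 34.8% of the exonic bases of PSMB10 are shared with another gene on the same strand, and the groups are compared under that limit. It was 0.023 ± 0.001 in siNC and 0.018 ± 0.002, 0.020 ± 0.003 and 0.023 ± 0.003 in siGABPA, siGPD1L and siBRD9. The ratio was 0.75, 0.83 and 0.96 times that of siNC (exact permutation p = 0.1, 0.2 and 0.8, adjusted 0.15, 0.286 and 0.8), and only siGABPA did not overlap siNC. PSME1 over PSME3 was 2.32 ± 0.03 in siNC and 4.64 ± 0.11, 4.51 ± 0.35 and 4.80 ± 0.23 in the targeting groups, with no overlap with siNC (exact permutation p = 0.1 each, adjusted 0.15). PSME2 over PSME3 was 0.77 ± 0.02 in siNC and 1.14 ± 0.05, 1.16 ± 0.06 and 1.21 ± 0.08, again with no overlap (exact permutation p = 0.1 each, adjusted 0.15). Both PA28 ratios were higher beside a lower PSME3, while PSME1 did not pass the test and PSME2 fell.

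**Figure D3:**
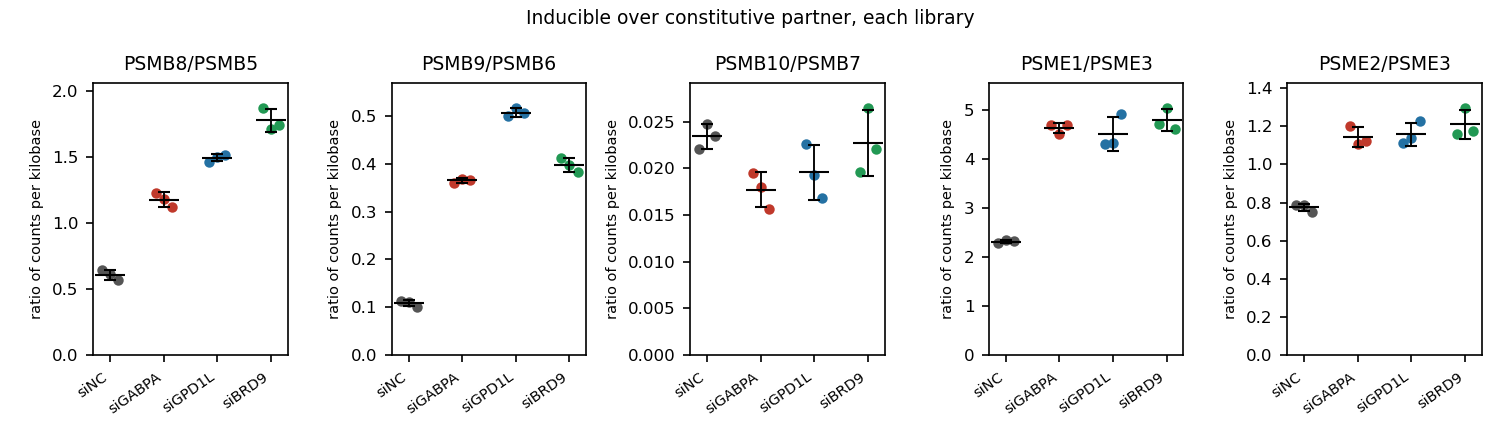
Ratio of counts per kilobase (y axis, from 0) in each library. PSMB8, PSMB9 and PSMB10 are set over PSMB5, PSMB6 and PSMB7, which they replace, and PSME1 and PSME2 over PSME3. Points are libraries, and the line and bar the mean and SD of 3. PSMB8 over PSMB5 goes from 0.57 to 0.64 in siNC to 1.12 or more in the targeting groups, while PSMB10 over PSMB7 is at 0.75, 0.83 and 0.96 times its siNC value and is the 1 pair with no group above siNC.

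As a share of the library, the 49 rows made up 0.69%, 0.67% and 0.69% of all counts in siNC. They made up 0.52% to 0.53% in siGABPA, 0.50% to 0.52% in siGPD1L and 0.48% to 0.50% in siBRD9. The 5 inducible genes made up 4.83% to 4.96% of the proteasome counts in siNC and 7.86% to 8.48% in the 9 targeting libraries. Neither share overlapped between siNC and the targeting groups. The siNC libraries also stood apart in their make-up as a whole, with 18.4% to 18.6% of counts in the 100 most abundant genes against 14.9% to 16.3%, and with TMM factors of 0.91 to 0.92 against 1.002 to 1.067. The part of this in the proteasome result was not tested, and the ratios within a library do not use the factors.

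**Figure D4:**
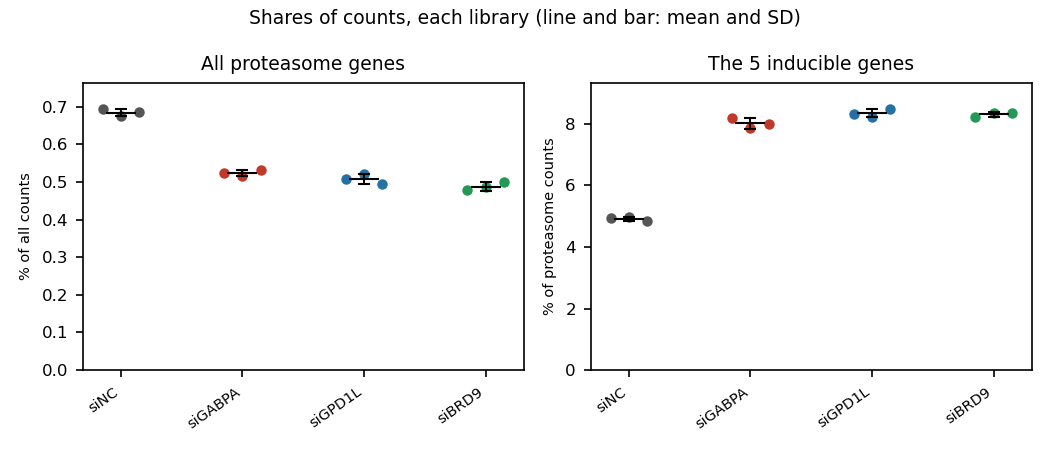
Left, share of all counts (y axis, %) that falls on the 49 proteasome rows; right, share of those proteasome counts (y axis, %) that falls on the 5 inducible genes; points are the 12 libraries, the line and bar the mean and SD of 3. The siNC libraries are highest on the left, at 0.67% to 0.69%, and lowest on the right, at 4.83% to 4.96%.

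Compared with each other, the targeting groups differed on few proteasome genes beyond 1.5-fold. Between siGABPA and siGPD1L edgeR called 0 of the 46 genes, where 15.4% of all tested genes were called in either direction. DESeq2 and limma also called 0. With no limit on the fold, 25 had an unadjusted p below 0.05 and 23 an FDR below 0.05, where 54.1% of all genes had such an FDR. Between siGPD1L and siBRD9 edgeR, DESeq2 and limma again called 0, beside 6.92% of all genes, with 16 at an unadjusted p below 0.05 and 11 at an FDR below 0.05, where 39.3% of all genes had such an FDR. Without siGPD1L replicate 3, PSMA2 was called in both comparisons, with a log2 fold change of 0.63 for siGABPA over siGPD1L and -0.73 for siGPD1L over siBRD9 (edgeR FDR 0.012 each). Between siGABPA and siBRD9 PSMA6 was called, beside 14.3% of all genes, with 25 at an FDR below 0.05, where 53.2% of all genes had such an FDR. PSMA6 had 1.20, 1.66 and 1.89 CPM in siGABPA and 0.76, 1.18 and 1.09 CPM in siBRD9, with an FDR of 0.03 that was lost with DESeq2 and without any 1 of siGABPA replicate 2, siGABPA replicate 3 or siBRD9 replicate 1. These comparisons do not use the siNC libraries.

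With no limit on the fold, the share of proteasome genes that differed was thus no higher than, or near, that of all genes, and the following values describe single genes, all within 1.5-fold. PSMC2 was lower in siGABPA than in siGPD1L by a log2 fold change of -0.36 and than in siBRD9 by -0.38 (edgeR FDR 1.55e-09 and 3.11e-09), and PSMC5 by -0.29 and -0.36 (FDR 8.50e-06 and 5.72e-07). PSMC3, of the same ring, was higher in siGABPA by 0.15 and 0.14 (FDR 0.00128 and 0.0028). PSMB6 was higher in siGABPA by 0.36 and 0.35 (FDR 1.71e-08 and 3.66e-07), and the lid gene PSMD3 by 0.36 and 0.36 (FDR 3.31e-10 and 1.25e-09). PSMB5 was higher in siGABPA than in siBRD9 by 0.43 and in siGPD1L than in siBRD9 by 0.39 (FDR 2.67e-06 and 1.79e-05). Among the inducible genes, PSMB9 was higher in siGABPA than in siBRD9 by 0.23 and in siGPD1L than in siBRD9 by 0.34 (FDR 6.32e-05 and 2.50e-07), and PSMB8 was lower in siGABPA than in siGPD1L by -0.30 (FDR 3.16e-07).

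Promoter windows show a feature that the naming rule did not use. RefSeq windows (GRCh38.p14, 250 bases before to 50 after a start site) were held for 42 of the 48 symbols, as 51 windows, and not for PSMA7, PSMB1, PSMB6, PSMB7, PSMD4 and PSMG3. An interferon-type element, GAAANNGAAA on either strand, the form read by IRF proteins, was found in 4 of the 6 windows of inducible genes (66.7%), each of another gene, in 3 of the 45 windows of constitutive genes (6.67%) and in 3.57% of all 35116 windows. In PSMB8, PSMB10, PSME1 and PSME2 it had the same letters, GAAAGCGAAA on 1 strand or the other, which occur in 35 of all windows (0.0997%), of 34 genes, 1 of them a constitutive proteasome gene. These letters were singled out after they were seen. The stretches that hold the element follow, 5′ to 3′ on the gene's strand, with the element in capitals.

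PSMB8 (chr6:32844042-32844127, minus strand): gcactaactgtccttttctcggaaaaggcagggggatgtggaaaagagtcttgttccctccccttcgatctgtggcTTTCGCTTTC
PSMB10 (chr16:67936851-67936930, minus strand): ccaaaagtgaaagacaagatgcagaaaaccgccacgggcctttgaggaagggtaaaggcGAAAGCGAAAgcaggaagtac
PSME1 (chr14:24136134-24136208, plus strand): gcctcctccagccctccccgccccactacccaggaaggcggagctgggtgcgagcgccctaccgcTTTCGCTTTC
PSME2 (chr14:24146611-24146690, minus strand): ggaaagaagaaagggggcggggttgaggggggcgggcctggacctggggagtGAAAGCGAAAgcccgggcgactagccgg

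The 4 genes with this element did not move together, since PSMB8 was higher, PSMB10 and PSME2 lower and PSME1 not past the test. PSMB9, the gene with the largest rise, had no such match in its window, and its last 80 bases before the start are shown for contrast. PSMB9 lies head to head with TAP1, the peptide transporter gene, with 488 bases between the RefSeq start sites. The RefSeq start of PSMB9, at base 32854192, lies inside the longer span of the GENCODE gene given above, which begins further upstream. The TAP1 window held the element at 134 and 128 bases before the TAP1 start, which is 354 and 360 bases before that of PSMB9 and outside the PSMB9 window.

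TAP1 (chr6:32853805-32853864, minus strand): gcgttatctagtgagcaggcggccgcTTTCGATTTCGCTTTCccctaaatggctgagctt
PSMB9 (chr6:32854112-32854191, plus strand): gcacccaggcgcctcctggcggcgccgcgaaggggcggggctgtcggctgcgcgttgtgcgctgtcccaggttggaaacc

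The core letters of an ETS site, CCGGAAG on either strand, the class of site that GABPA reads, were in 15 of 51 proteasome windows (29.4%), all of constitutive genes, against 10.3% of all windows. They were in 5 of the 23 windows (21.7%) of genes called lower in every targeting group. These windows are part of the 51, and the differences between the shares of 21.7%, 29.4% and 10.3% were not tested. PSMC2, with the second largest fall in siGABPA, held 2 matches in its window, and the 1 that starts 23 bases before the start site is shown in capitals. PSMC5, with the largest, had no match in its windows. A GAS-type element, TTCNNNGAA, was in 8 of 51 windows (15.7%, all windows 7.66%), the antioxidant-type element TGANNNNGC in 32 (62.7%, all windows 41.8%) and CCAAT in 20 (39.2%, all windows 34.6%). In 4 genes matches of 2 of these elements shared bases. A match is a run of letters and no measure of binding.

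PSMC2 (chr7:103347563-103347642, plus strand): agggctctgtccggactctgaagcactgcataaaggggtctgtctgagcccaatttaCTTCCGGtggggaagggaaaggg

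Genes that work with the proteasome gave a mixed picture against siNC. The share of all tested genes called lower was 15.2%, 15.5% and 11.5% in siGABPA, siGPD1L and siBRD9, and that called higher 21.3%, 20.4% and 16.7%, and the counts of these lists stand beside those shares. Of 10 further proteasome genes, 4, 3 and 3 were called lower in siGABPA, siGPD1L and siBRD9 and none was called higher. TXNL1, a thioredoxin-like protein of the 19S cap, was at 53.8%, 48.4% and 55.4% of siNC (edgeR FDR 5.17e-13, 5.66e-13 and 1.49e-11). POMP, the core maturation factor, was at 59.3%, 73.3% and 66.3%, and ADRM1, a ubiquitin receptor, at 69.8%, 60.6% and 57.5% of siNC. AKIRIN2, which brings proteasomes into the nucleus, had log2 fold changes of 0.53, 0.52 and 0.18, all with an FDR below 0.05 and within the fold limit. Of the 6 ubiquitin and ubiquitin-activating genes, 3, 3 and 2 were called lower. UBB was at 56.8%, 52.4% and 56.2% of siNC and RPS27A, which encodes ubiquitin fused to a ribosomal protein, at 43.9%, 48.8% and 60.8%. In siGPD1L UBA6 was called higher at 0.99.

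NFE2L1, also known as NRF1 or TCF11, is the factor that drives proteasome genes when the proteasome is impaired. Its transcript was at 230.1, 231.5 and 241.6 CPM in siNC, 318.0, 338.5 and 322.1 CPM in siGABPA, 388.5, 402.1 and 383.9 CPM in siGPD1L and 321.3, 310.1 and 304.7 CPM in siBRD9. All targeting libraries were above siNC, opposite in direction to most proteasome genes, with log2 fold changes of 0.48, 0.75 and 0.43 (edgeR FDR 2.93e-10, 3.04e-14 and 1.83e-09), called in siGPD1L. Of the 8 genes of its route, 3, 4 and 3 were called higher, beside 21.3%, 20.4% and 16.7% of all tested genes. Among them were the small MAF partners MAFF, MAFG and MAFK in every comparison. VCP, the ATPase that extracts NFE2L1 from the endoplasmic reticulum, was the 1 called lower, beside 15.2%, 15.5% and 11.5% of all tested genes. Its level was 55.1%, 52.3% and 54.5% of siNC. DDI2, the protease that processes NFE2L1, had log2 fold changes of -0.20, 0.30 and -0.02.

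The genes of class I presentation, which use the peptides of the proteasome, were higher in part. Of 13 genes 6, 6 and 5 were called higher, beside 21.3%, 20.4% and 16.7% of all genes, and 2, 1 and 1 lower, beside 15.2%, 15.5% and 11.5%, so that the lower calls were near the share of all genes. TAP1, the neighbour of PSMB9, was at 75.0, 72.2 and 76.0 CPM in siNC and between 158.9 and 193.8 CPM in the targeting libraries, with log2 fold changes of 1.34, 1.26 and 1.16 (edgeR FDR 9.73e-16, 6.92e-17 and 5.09e-15) beside the 1.29, 1.41 and 1.08 of PSMB9. B2M, the light chain, stood at 259.0%, 241.5% and 245.0% of siNC. HLA-B stood at 546.1%, 509.3% and 475.0% and HLA-C at 343.7%, 297.3% and 276.6%, although reads of these near-identical genes may have been split or dropped in the counting. TAP2, the partner chain of the transporter, was lower at 77.5%, 87.0% and 91.5% of siNC. CANX, a chaperone of the heavy chain, was called lower in all 3 comparisons.

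The signalling genes above them were divided as well. Of 9 interferon signalling genes 4, 5 and 4 were called higher, beside 21.3%, 20.4% and 16.7% of all genes, and 1 lower in each comparison, near the 15.2%, 15.5% and 11.5% of all genes. NLRC5, the class I transactivator, was higher, with means of 7.99 CPM in siNC and 26.2, 25.8 and 19.3 CPM. STAT2 had log2 fold changes of 1.29, 1.19 and 1.07, the receptor chain IFNGR2 of 0.70, 0.65 and 0.97, and IRF1 of 0.46, 0.34 and 0.38. NLRC5 and STAT2 were thus called higher in the same comparisons as PSMB9, TAP1 and B2M.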

How the data were processed

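The authors deposited 1 table of raw counts per gene for the 12 libraries of 786-O cells, prepared with a NEBNext Ultra kit. The submitters' processing notes name HISAT2, HTSeq, DESeq2 and hg38, and the study's methods name featureCounts as the counter. Aligner settings, annotation and strand setting are not given in the sources used here. Groups were taken from the labels. The depth was 19499090 to 29999290 counts per library. Standard errors and p-values rest on the spread between libraries. Each comparison of 2 groups was fitted on its own 6 libraries in edgeR 4.0.16 (R 4.3.3) with TMM factors, filterByExpr, the quasi-likelihood test and Benjamini-Hochberg adjustment over all genes tested. A gene was called at an FDR below 0.05 and a fold above 1.5. Levels per kilobase used exonic lengths of GENCODE 29. Ratios per kilobase used the plain counts, and the fold and permutation test of a ratio used counts plus 0.5. The edgeR, DESeq2 and limma fits were tested on data simulated for siGABPA against siNC, and the other comparisons and settings were not. Libraries of 1 group differed by more than sampling noise, so none was counted as a duplicate. Alternatives used limma 3.58.1 (voom), DESeq2 1.42.0, other scalings and filters, all 12 libraries in 1 fit, the replicate number as a block and each library left out. All proteasome genes could be named; those given in full were the inducible genes, PSMB5, PSMB6, PSMB7, PSME3 and, per comparison, the 3 constitutive genes called higher and the 3 called lower with the largest fold and no overlap. The members and lists were chosen with earlier results of these data known. Protein sequences were not used here. Some genes of the lists are counted and not reported here by name. Figures were drawn with matplotlib 3.10.9.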

Additional observations from a re-analysis of the deposited data

How the results depend on the processing

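Of the values of sets and ratios recomputed under other settings, 314 stayed within the limit set, 24 moved past it and 1 turned. The limit was a count within 1.5 times, or a median or ratio within 1 SD between libraries. Of the values of single genes, 858 kept their call, 6 lost and 2 gained a call and 2 turned. A gene was taken as turned where its direction changed with an FDR below 0.05 in either fit. Changes of direction without such an FDR are thus among the 858. With FDR below 0.05 alone, 2, 3 and 3 genes were higher in siGABPA, siGPD1L and siBRD9, 39, 38 and 36 lower, and 23, 25 and 11 differed in siGABPA against siGPD1L, siGABPA against siBRD9 and siGPD1L against siBRD9. With total counts only, 9, 15 and 18 genes were called lower, and 2 higher in siGPD1L, where PSMB8 was added; the constitutive medians were -0.48, -0.50 and -0.53 and the inducible medians 0.24, 0.11 (from below 0) and 0.19, while PSMB7 turned to 0.088 in siGABPA and PSME1 to 0.11 in siGPD1L. This setting shifts all genes, by 0.22, 0.17 and 0.13. With at least 10 counts in every library the constitutive median in siGABPA was -0.65, a move of 0.05 that the median over all genes shared by both fits made as well. DESeq2 called 0 genes in siGABPA against siBRD9. Leaving out 1 library at a time gave 1 to 2 genes higher in siGPD1L, 24 to 26, 24 to 24 and 24 to 25 lower in the 3 comparisons with siNC, and 0 to 1 called in each comparison between targeting groups.

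Same-numbered libraries did not deviate together (correlations of deviations -0.08 to 0.04), so the numbers do not pair the samples. With the replicate number as a block, 24, 24 and 24 genes were lower and 1, 1 and 1 higher against siNC. Low counts limit PSMA2, PSMA6, PSMB10 and PSMD9.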
